A study of Mus musculus with 4 samples.

Results

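The genes described here encode the cytochrome P450 enzymes of families 1, 2 and 3, the main group of enzymes that oxidise drugs and other foreign compounds in the liver. They were all the genes whose symbol starts with Cyp1, Cyp2 or Cyp3 followed by a letter. This rule uses names and not values, but it was set with earlier results of these data known. A total of 63 probe sets of the 65956 on the array matched. Of these, 58 were annotated to 1 gene each and gave 1 gene apiece, out of 30748 genes with a probe set of their own. The other 5 were annotated to several genes and are described as shared readings: Cyp2a5 with Cyp2a4, Cyp2c29 with the pseudogene Cyp2c53-ps, Cyp2d11 with a microRNA gene, and Cyp3a41a with Cyp3a41b on a pair of probe sets.

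Total RNA of mouse liver was measured on 4 expression arrays, 1 for each combination of genotype and time, each holding RNA pooled from 3 male fasted mice. The wildtype mice carried a floxed YAP gene, and the YAP-KO mice lacked the transcriptional coactivator YAP. The sources used here do not give what drove the deletion, in which cells, or the age and strain of the mice. The 0 h mice were fasted and received no acetaminophen, and the 24 h mice were killed 24 h after 300 mg/kg of acetaminophen given intraperitoneally. No array of fasted mice at 24 h without the drug was analysed here, so the overdose cannot be told apart from time, handling or feeding. Yap1 itself was lower on the YAP-KO array at both times, at 6.31 beside 7.54 (0 h) and 6.01 beside 8.24 (24 h).

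P450 enzymes are haem proteins of the endoplasmic reticulum that receive electrons from NADPH-cytochrome P450 reductase and cytochrome b5. Many are transcribed under ligand-activated factors: the aryl hydrocarbon receptor AHR for family 1, and the nuclear receptors CAR (gene Nr1i3) and PXR (gene Nr1i2) for families 2 and 3. Most lie toward the central vein of the liver lobule, where CYP2E1, CYP1A2 and CYP3A enzymes convert acetaminophen to the reactive quinone imine that injures hepatocytes. Mouse genes of these families occur in tandem clusters of close copies, and several are transcribed more in one sex.

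Values are deposited log2 values, listed with wildtype before YAP-KO at each time, and differences are log2 differences between single arrays, in which 1 unit is 2-fold. With 1 array per group no difference had a replicate check, and the p-values given come only from a fit over all 4 arrays. Values within 0.01 of an array's highest value (19.83 to 19.93) were taken as saturated. Genes with a mean of at least 4.32, the 40th percentile, were counted, and 49 of the 58 P450 genes passed. The 9 that did not were Cyp2ab1, Cyp2b19, Cyp2b23, Cyp2c66, Cyp2j11, Cyp2j12, Cyp2j13, Cyp2s1 and Cyp2t4, with means of 3.38 to 4.29. The comparisons share arrays with one another. Of 9 hepatocyte markers measured, 7 (among them Alb, Ttr and Ahsg) were saturated on all 4 arrays, so the tissue read as liver throughout.

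P450 genes were mostly lower 24 h after acetaminophen, and more of them in wildtype than in YAP-KO liver. In wildtype 28 of the 49 genes were at least 2-fold lower and 0 higher, while 5.89% of 18464 genes on the array were 2-fold lower and 12.7% higher. In YAP-KO 17 were 2-fold lower and 0 higher, beside 2.22% of all genes lower and 4.72% higher. The median over the P450 genes was -1.17 in wildtype and -0.50 in YAP-KO, beside 0.07 for all genes in each genotype. Subtracting each array's median moved the wildtype differences of all genes by 0.15 and the YAP-KO ones by 0.10, and quantile normalization by -0.12 and -0.04, small beside those medians. A total of 13 genes were 2-fold lower in both genotypes, 15 in wildtype alone and 4 in YAP-KO alone; the difference between those counts was not tested. The wildtype 24 h array held the lowest of the 4 values for 37 genes (75.5%), beside 29.1% of all genes, and the wildtype 0 h array the highest for 37 genes (75.5%), beside 24.7% of all genes. In liver homogenate, fewer cells of a type and less RNA per cell cannot be told apart.

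**Figure D1:**
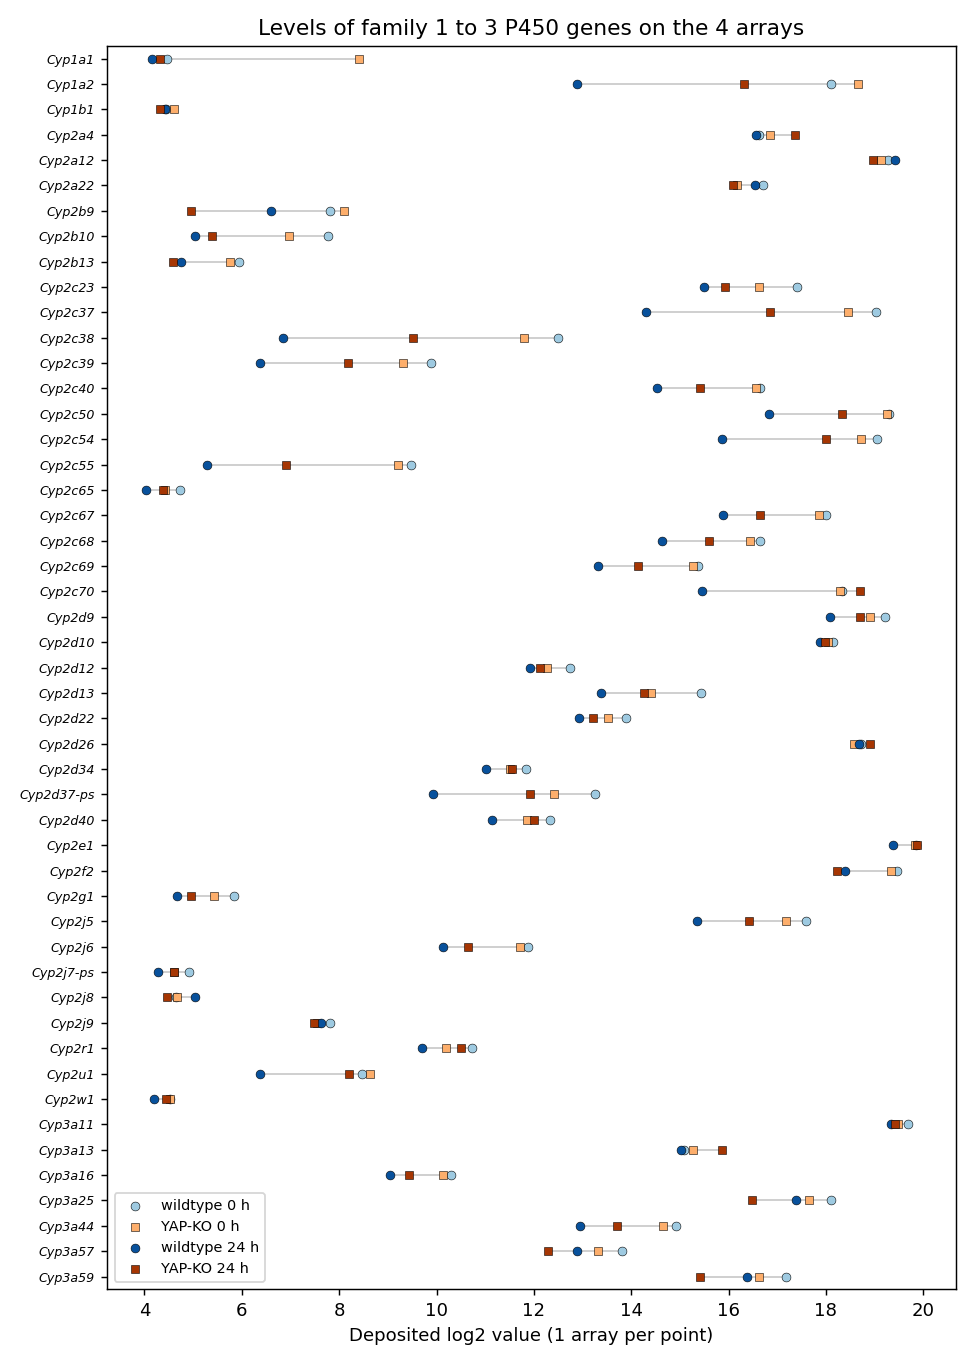
Deposited log2 values (x axis) of the 49 P450 genes that passed the filter (y axis, ordered by subfamily), with 1 point per array: circles for wildtype, squares for YAP-KO, pale for 0 h and dark for 24 h. Dark circles are the lowest point for 37 genes, and Cyp1a1 is near 8.41 on the YAP-KO 0 h array and between 4.15 and 4.47 on the others.

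The only test the design allows, an additive limma fit of genotype and time over the 4 arrays with Benjamini-Hochberg adjustment over 18464 genes, called 0 of 49 P450 genes for time and 0 for genotype, as it called 0% of all genes. The smallest adjusted p was 0.285 for time and 0.997 for genotype. At an unadjusted p under 0.05, 23 of 49 P450 genes were lower at 24 h, beside 15.3% of all genes in either direction, and 3 were lower in YAP-KO, beside 2.36%. A single residual degree of freedom is left in this fit, so a gene whose 24 h difference was unequal in the genotypes has a large error. Refitting with a trended, robust moderation also called 0 in each.

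Between the genotypes the P450 genes differed little before the overdose and more after it. At 0 h 41 of 49 were below 0 in YAP-KO minus wildtype (83.7%, beside 53.6% of all genes; 40 with array medians subtracted and 36 with quantile normalization). The median was -0.25, and 2 passed 2-fold, Cyp1a1 upward (beside 1.01% of all genes) and Cyp2d13 downward (0.877%). At 24 h 11 were 2-fold higher in YAP-KO, beside 3.24% of all genes, and 1, Cyp2b9, was 2-fold lower, beside 5.73%. The 24 h median was 0.49. In the difference of the 24 h responses, 18 genes were 2-fold higher in YAP-KO, beside 5.66% of all genes, and 2, Cyp1a1 and Cyp2b9, 2-fold lower, beside 7.5%. That contrast and the 24 h contrast use the same 24 h arrays and are not separate evidence.

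**Figure D2:**
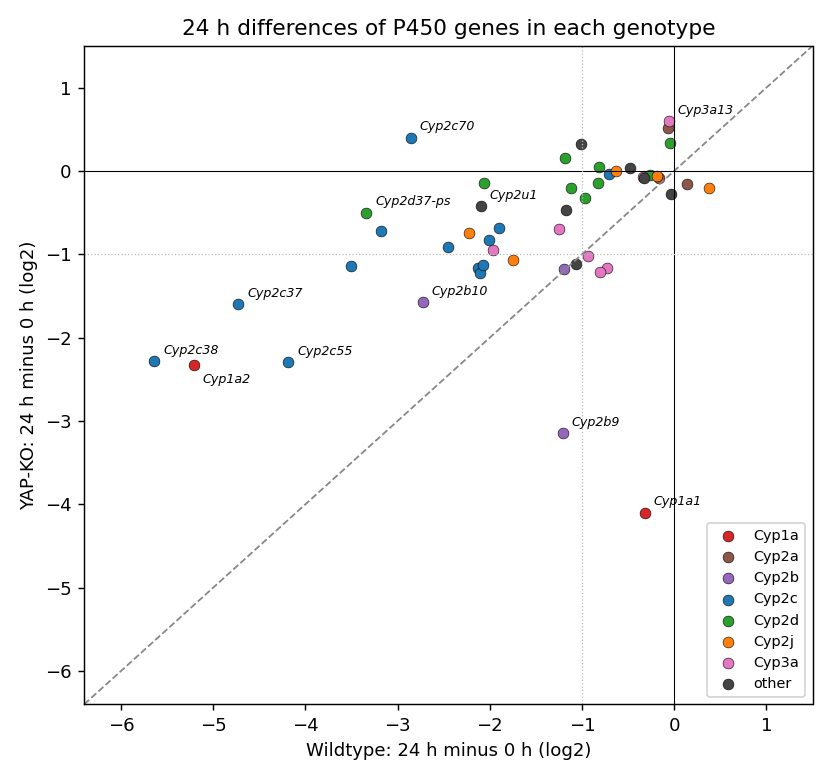
Each point is 1 of 49 P450 genes, placed by its 24 h minus 0 h log2 difference in wildtype (x axis) and in YAP-KO (y axis) and coloured by subfamily; dotted lines mark 2-fold lower and the dashed line equal differences. Most Cyp2c points lie left of -2 and above the dashed line, Cyp1a1 and Cyp2b9 lie far below it, and Cyp2c70 lies at -2.86 and 0.40.

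Cyp1a1, which encodes the AHR-induced oxidase of polycyclic aromatic hydrocarbons, read 4.47 and 8.41 at 0 h against 4.15 and 4.31 at 24 h. It was thus high on the YAP-KO 0 h array, through which it passed the filter, and near the filter level on the other 3. Its difference at 0 h was 3.94, and its 24 h difference was -0.32 in wildtype and -4.10 in YAP-KO; against the wildtype 0 h array, the YAP-KO 24 h value was -0.16. Cyp1a2, the constitutive liver member, which oxidises caffeine and acetaminophen, read 18.10 and 18.65 at 0 h against 12.89 and 16.32 at 24 h. Both genotypes were lower at 24 h, with differences of -5.21 in wildtype and -2.33 in YAP-KO, which left YAP-KO 3.43 above wildtype. In the additive fit Cyp1a2 had a time coefficient of -3.77 (SE 0.83). Cyp1b1, the family member found mainly outside the liver, stayed between 4.32 and 4.6.

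Cyp1a1 and Cyp1a2 are neighbours on chromosome 9, and the 250 bases before each start are shown because both read highest on the YAP-KO 0 h array, Cyp1a1 by 3.94 and Cyp1a2 by 0.55 above wildtype. Sequences here are from RefSeq (GRCm38.p6), printed 5′ to 3′ on the gene's strand, and capitals mark matches to the motifs searched. In Cyp1a1 (chr9:57697363-57697612, plus strand) they are the AHR core GCGTG, 54 bases before the start, and the TATA box TATAAA, 30 bases before it. In Cyp1a2 (chr9:57683656-57683905, minus strand) the capitals are a TATA box 29 bases before the start, and GCGTG is not in the window. The well-known AHR-bound enhancer of Cyp1a1 lies farther upstream than this window reaches.
Cyp1a1: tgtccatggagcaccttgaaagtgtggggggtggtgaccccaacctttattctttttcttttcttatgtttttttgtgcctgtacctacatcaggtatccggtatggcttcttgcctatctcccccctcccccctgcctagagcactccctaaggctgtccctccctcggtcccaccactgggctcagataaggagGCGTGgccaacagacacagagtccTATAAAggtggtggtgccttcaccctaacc
Cyp1a2: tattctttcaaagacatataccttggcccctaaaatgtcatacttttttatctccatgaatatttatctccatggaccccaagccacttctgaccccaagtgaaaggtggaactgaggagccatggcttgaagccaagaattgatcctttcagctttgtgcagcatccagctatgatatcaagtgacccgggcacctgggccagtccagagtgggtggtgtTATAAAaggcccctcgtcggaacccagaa

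A promoter was in the table for 48 of the 58 genes and, with the genes of shared probe sets, for 53 symbols in 56 windows. Each motif was searched on both strands of the 250 bases, no matches of different motifs overlapped, and the same search was run on all 32851 promoters. GCGTG was in 10 of 56 P450 windows (17.9%, beside 28.2% of all promoters). The nuclear receptor half-site AGGTCA was in 16 (28.6%, beside 14%), and the TATA box TATAAA in 25 (44.6%, beside 12.4%). The HNF4 motif CAAAGTCCA was in 10 (17.9%, beside 0.384%). The C/EBP motif TTGCNNCAA was in 2 (3.57%, beside 1.74%). Windows of one cluster descend from common copies and are not independent, and a match is a description of letters, not of binding.

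Family 2 held most of the genes. For each count of 2-fold lower genes in the subfamilies below, the background is 5.89% of all genes in wildtype and 2.22% in YAP-KO. Enzymes of the Cyp2c subfamily epoxidise and hydroxylate fatty acids and many drugs. Of 13 genes that passed the filter, 12 were 2-fold lower in wildtype (median -2.45) and 7 in YAP-KO (median -1.13). At 0 h all 13 were below 0 in YAP-KO minus wildtype, by -0.03 to -0.78, and 11 of 13 after quantile normalization. At 24 h all 13 were above 0, by 0.36 to 3.23 with a median of 1.5, also under both scalings, and 7 of them 2-fold or more. Of all genes 51.9% were below 0 in that comparison, and 3.24% were 2-fold higher.

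The lowest 24 h difference of the 49 genes in wildtype belonged to Cyp2c38. It read 12.49 and 11.79 at 0 h against 6.85 and 9.51 at 24 h, so its differences were -5.64 and -2.28. Cyp2c37 came next within the subfamily, at 19.03 and 18.45 at 0 h against 14.30 and 16.85 at 24 h, with differences of -4.73 and -1.60. Both had both 24 h values below both 0 h values, with wildtype lowest. Cyp2c55, which CAR and PXR ligands induce, read 9.48 and 9.20 at 0 h against 5.29 and 6.91 at 24 h. Cyp2c39 read 9.88 and 9.32 at 0 h against 6.37 and 8.18 at 24 h. The same order of arrays was seen in these as in Cyp2c38, with differences of -4.19 and -2.29 for Cyp2c55 and -3.51 and -1.14 for Cyp2c39.

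Cyp2c54 and Cyp2c50 were bright at 0 h and lower by more in wildtype. Cyp2c54 read 19.04 and 18.73 at 0 h against 15.86 and 18.01 at 24 h, and Cyp2c50 read 19.29 and 19.25 and then 16.84 and 18.34. Their differences were -3.18 and -2.45 in wildtype and -0.72 and -0.91 in YAP-KO. The probe set shared by Cyp2c29, a CAR target, and Cyp2c53-ps read 13.67 and 13.60 at 0 h against 10.66 and 12.47 at 24 h. Cyp2c23, named Cyp2c44 in older annotation and encoding an arachidonic acid epoxygenase, read 17.40 and 16.62 at 0 h against 15.50 and 15.93 at 24 h. Its 24 h values lay closest together among these, 0.43 apart. Cyp2c65 was dim, at 4.03 to 4.74, and was the only one of the 13 that was not 2-fold lower in wildtype.

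Cyp2c70, the enzyme that makes muricholic acids in mice, was the one Cyp2c gene above 0 at 24 h in YAP-KO. It read 18.32 and 18.29 at 0 h against 15.46 and 18.69 at 24 h. Only the wildtype 24 h array was low. The differences were -2.86 in wildtype and 0.40 in YAP-KO, and YAP-KO stood 3.23 above wildtype at 24 h.

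Cyp2c40, Cyp2c67, Cyp2c68 and Cyp2c69 are neighbouring copies on chromosome 19, and their wildtype differences lay between -2.13 and -2.01 and their YAP-KO differences between -1.22 and -0.83. Cyp2c40 read 16.65 and 16.57 at 0 h against 14.52 and 15.41 at 24 h, and Cyp2c67 read 18.00 and 17.86 and then 15.89 and 16.64. Cyp2c68 read 16.64 and 16.43 at 0 h against 14.63 and 15.60 at 24 h, and Cyp2c69 read 15.38 and 15.27 and then 13.31 and 14.14. The promoters of Cyp2c68 and Cyp2c69 were 91.3% identical over the 250 bases. Other pairs among the 4 were less alike, from 77.5% (Cyp2c40 and Cyp2c69) down to 48.2% (Cyp2c40 and Cyp2c67). Whether the array separates these copies was not tested, so the 4 near-equal differences may not be separate observations.

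**Figure D3:**
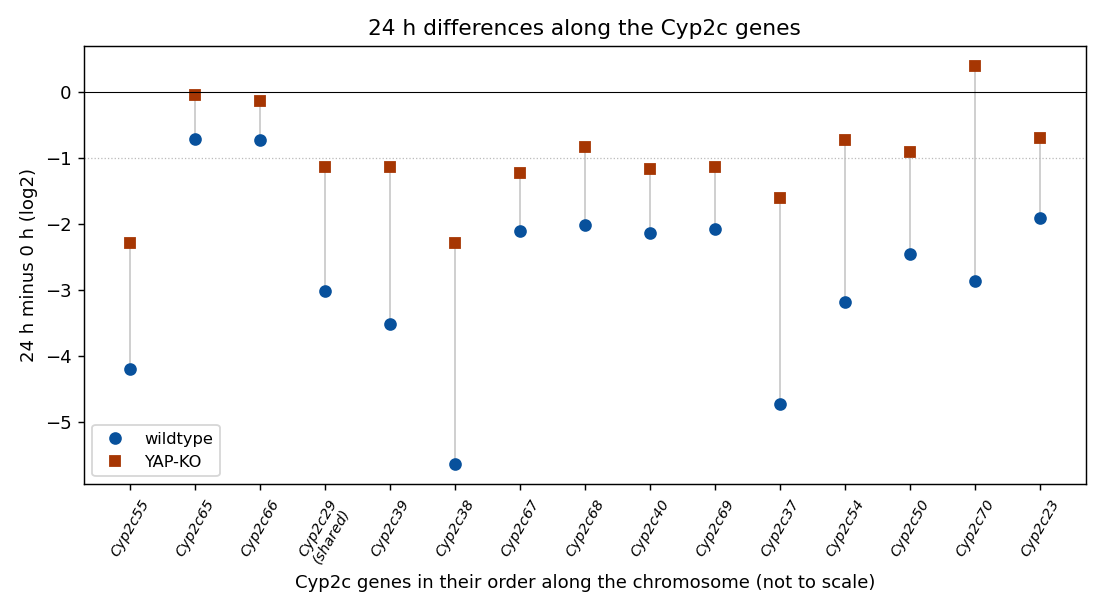
The y axis gives 24 h minus 0 h log2 differences in wildtype (circles) and YAP-KO (squares) for Cyp2c genes in their order along chromosome 19 (x axis, not to scale); Cyp2c29 is the reading shared with Cyp2c53-ps, and Cyp2c66 did not pass the filter. Every square lies above its circle, and the gap is widest for Cyp2c38 (3.36) and Cyp2c70 (3.26).

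The HNF4 motif was found in 6 Cyp2c windows (Cyp2c40, Cyp2c65, Cyp2c67, Cyp2c68, Cyp2c69 and Cyp2c70) and 4 Cyp3a windows (Cyp3a11, Cyp3a16, Cyp3a41a and Cyp3a41b). HNF4A is a nuclear receptor that maintains hepatocyte transcription, and its own gene Hnf4a read 12.29 and 13.09 at 0 h against 11.39 and 11.64 at 24 h. Wildtype differences ran from -2.86 (Cyp2c70) to -0.34 (Cyp3a11) over the genes with the motif. Cyp2c38, Cyp2c37 and Cyp2c55, the 3 Cyp2c genes with the lowest wildtype differences, do not have these letters in the window. The 120 bases before the start are shown for Cyp2c70 (chr19:40187287-40187406, minus strand), Cyp2c40 (chr19:39812815-39812934, minus strand) and Cyp3a11 (chr5:145879855-145879974, minus strand). They are examples with the motif and, in that order, with a low, a middle and a high 24 h difference in wildtype. Capitals mark CAAAGTCCA and, in Cyp2c70, also AGGTCA and a TATA box on the opposite strand.
Cyp2c70: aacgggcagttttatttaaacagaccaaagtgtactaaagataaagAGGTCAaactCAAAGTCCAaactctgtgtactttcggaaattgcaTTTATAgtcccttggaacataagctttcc
Cyp2c40: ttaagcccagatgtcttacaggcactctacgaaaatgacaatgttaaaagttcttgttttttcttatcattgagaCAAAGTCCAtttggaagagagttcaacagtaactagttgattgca
Cyp3a11: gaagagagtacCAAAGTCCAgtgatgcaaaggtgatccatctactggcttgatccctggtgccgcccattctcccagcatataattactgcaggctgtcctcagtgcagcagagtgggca

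Cyp2a genes, which lie on chromosome 7, read much alike on the 4 arrays. Of 3 genes, 0 were 2-fold different in any contrast as deposited, and Cyp2a4 was 1.20 higher in YAP-KO at 24 h after quantile normalization. Cyp2a4, a steroid hydroxylase gene, read 16.63 and 16.86 at 0 h against 16.56 and 17.37 at 24 h. Cyp2a12 read 19.27 and 19.13 at 0 h against 19.41 and 18.97 at 24 h, and Cyp2a22 lay between 16.09 and 16.70. The reading shared by Cyp2a5, the coumarin hydroxylase gene, and Cyp2a4 was 17.43 and 17.71 at 0 h against 17.13 and 18.00 at 24 h. The highest of its 4 values was thus on the YAP-KO 24 h array, as for Cyp2a4, whose promoter is 97.6% identical to that of Cyp2a5.

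Of 5 Cyp2b genes 3 passed the filter, and all 3 were 2-fold lower at 24 h in each genotype. Cyp2b10, the classic CAR target of liver, read 7.77 and 6.96 at 0 h against 5.04 and 5.39 at 24 h, with differences of -2.73 and -1.57. Cyp2b9 and Cyp2b13 are transcribed more in females, and these mice were male. Cyp2b13 read 5.95 and 5.76 at 0 h against 4.75 and 4.58 at 24 h, and Cyp2b9 read 7.81 and 8.10 and then 6.60 and 4.95. The 2 genes had near-equal wildtype differences (-1.20 and -1.21), but in YAP-KO Cyp2b13 was at -1.18 and Cyp2b9 at -3.15. The low Cyp2b9 value on the YAP-KO 24 h array set it 1.65 below wildtype, the lowest of the 49 differences at that time.

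The promoters of this pair are shown because the YAP-KO 24 h differences were unequal although the upstream sequence is 99.2% identical. The values themselves lay closest together on the YAP-KO 24 h array, at 4.95 for Cyp2b9 and 4.58 for Cyp2b13. On the YAP-KO 0 h array Cyp2b9 read 8.10 and Cyp2b13 only 5.76. An equal fall would have taken Cyp2b13 below the filter level. Whether its low level limited its difference was not tested. Both genes lie on chromosome 7. Capitals mark the 2 bases that differ in the 250 before the start of Cyp2b9 (chr7:26173159-26173408, plus strand) and Cyp2b13 (chr7:26061245-26061494, plus strand).
Cyp2b9: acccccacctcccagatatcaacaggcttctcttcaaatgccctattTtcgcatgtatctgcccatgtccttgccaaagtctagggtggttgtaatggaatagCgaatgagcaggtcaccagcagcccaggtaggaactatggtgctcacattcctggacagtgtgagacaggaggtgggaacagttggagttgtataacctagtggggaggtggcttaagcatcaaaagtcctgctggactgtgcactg
Cyp2b13: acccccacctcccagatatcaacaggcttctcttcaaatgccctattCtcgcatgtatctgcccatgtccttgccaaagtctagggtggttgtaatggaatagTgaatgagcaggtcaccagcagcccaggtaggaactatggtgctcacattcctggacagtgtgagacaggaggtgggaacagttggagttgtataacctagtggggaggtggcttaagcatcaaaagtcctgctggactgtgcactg

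Of 9 Cyp2d genes, all 9 were below 0 at 24 h in wildtype (8 with array medians subtracted), beside 44.6% of all genes. Of these 4 were 2-fold lower (median -0.97). In YAP-KO 6 of the 9 were below 0, beside 40.3% of all genes, and 0 were 2-fold lower (median -0.15). The pseudogene Cyp2d37-ps read 13.26 and 12.42 at 0 h against 9.92 and 11.92 at 24 h, the lowest of the subfamily at -3.34 in wildtype against -0.50 in YAP-KO. Cyp2d13, the next P450 gene on chromosome 15, read 15.44 and 14.41 at 0 h against 13.38 and 14.26 at 24 h. Wildtype at 0 h was thus the high array for Cyp2d13, whose 0 h difference of -1.03 became -0.93 after quantile normalization, short of 2-fold. Cyp2d40 read 12.34 and 11.85 at 0 h against 11.15 and 12.01 at 24 h. Cyp2d9, the male-biased steroid hydroxylase gene, read 19.21 and 18.91 at 0 h against 18.09 and 18.70 at 24 h. Cyp2d22, the mouse gene closest to human CYP2D6, read 13.89 and 13.53 at 0 h against 12.92 and 13.21 at 24 h. In each of these the wildtype 24 h array was the lowest. Cyp2d10, Cyp2d12, Cyp2d26 and Cyp2d34 had wildtype differences of -0.83 to -0.05 and YAP-KO differences of -0.15 to 0.33, and the Cyp2d11 probe set lay between 16.14 and 16.66.

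Cyp2e1, whose enzyme oxidises ethanol and is a main source of the reactive acetaminophen metabolite, was saturated on 3 of the 4 arrays. It read 19.86 and 19.83 at 0 h, both saturated, and 19.38 in wildtype and 19.87, saturated, in YAP-KO at 24 h. The wildtype 24 h value was therefore at least 0.48 below its 0 h value and at least 0.49 below YAP-KO at 24 h, and no difference can be given between the others. In all, 8 of the 49 genes were within 1 unit of the highest value on the wildtype 0 h array.

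Cyp2f2, a gene of periportal hepatocytes and of airway club cells, read 19.46 and 19.34 at 0 h against 18.40 and 18.22 at 24 h. Its 24 h difference was alike in the genotypes, at -1.06 and -1.12. Cyp2j5, an arachidonic acid epoxygenase gene, read 17.59 and 17.17 at 0 h against 15.36 and 16.42 at 24 h, and Cyp2j6 read 11.88 and 11.71 and then 10.13 and 10.64. Of 8 Cyp2j genes 5 passed the filter, and these were the 2 that were 2-fold lower in wildtype; Cyp2j7-ps, Cyp2j8 and Cyp2j9 had wildtype differences of -0.63, 0.38 and -0.19. The fatty acid hydroxylase gene Cyp2u1 read 8.47 and 8.63 at 0 h against 6.37 and 8.21 at 24 h, low on the wildtype 24 h array alone. Cyp2r1, the vitamin D 25-hydroxylase gene, read 10.72 and 10.19 at 0 h against 9.71 and 10.51 at 24 h. Cyp2g1, an olfactory P450 gene, read 5.84 and 5.43 and then 4.67 and 4.96. The dim Cyp2w1 lay between 4.20 and 4.53.

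**Figure D4:**
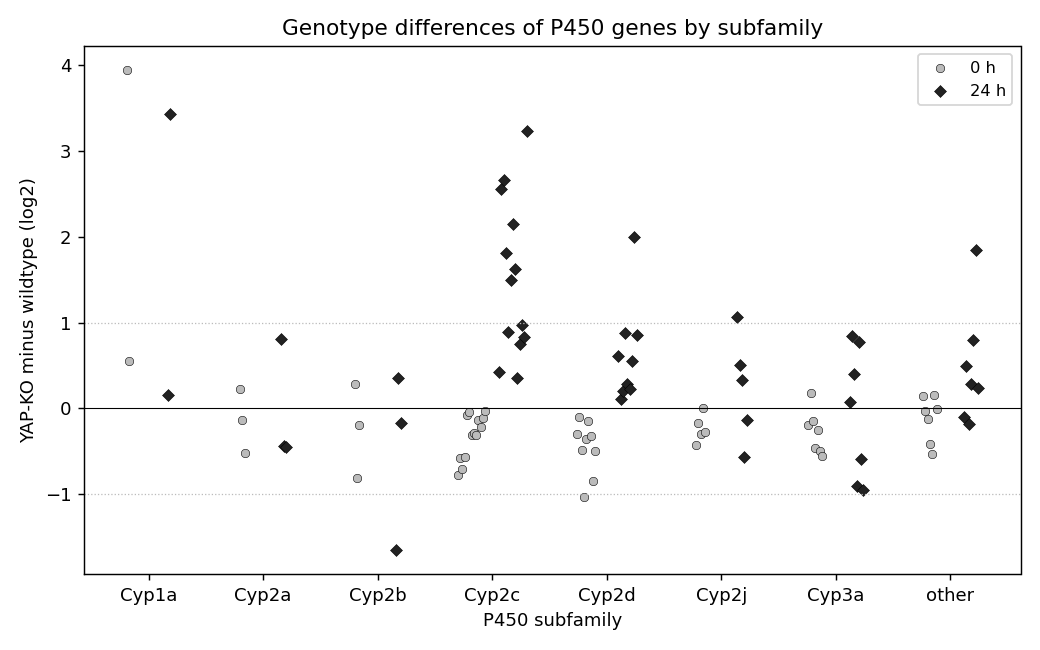
YAP-KO minus wildtype log2 differences (y axis) at 0 h (grey circles) and 24 h (black diamonds), with 1 point per gene for the 49 P450 genes, by subfamily (x axis; "other" holds single-gene subfamilies). The 13 Cyp2c diamonds lie at 0.36 to 3.23 and the 9 Cyp2d diamonds at 0.11 to 2.0. Of the 49 diamonds 11 lie below 0, among them 3 Cyp3a diamonds and Cyp2b9 at -1.65.

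Family 3 genes had no common order of the arrays. Beside medians of -1.17 in wildtype and -0.50 in YAP-KO over all 49 P450 genes, theirs was nearer 0 in wildtype and farther from it in YAP-KO. Of 7 Cyp3a genes, 2 were 2-fold lower in wildtype (median -0.81) and 3 in YAP-KO (median -0.95), beside 5.89% and 2.22% of all genes. After quantile normalization Cyp3a57 (-1.12) and Cyp3a59 (-1.17) were also 2-fold lower in wildtype. Cyp3a11, the PXR target that corresponds to human CYP3A4 and also oxidises acetaminophen, read 19.68 and 19.49 at 0 h against 19.34 and 19.42 at 24 h. These 4 values span 0.34 and lie close to the highest value of each array. Cyp3a13 read 15.08 and 15.26 at 0 h against 15.02 and 15.86 at 24 h. It had the highest YAP-KO difference of the 49 genes, 0.60, beside -0.06 in wildtype, which was -0.65 after quantile normalization.

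Cyp3a25, Cyp3a57 and Cyp3a59 were lower at 24 h by more in YAP-KO, unlike the Cyp2c genes. Cyp3a25 read 18.11 and 17.65 at 0 h against 17.38 and 16.48 at 24 h, with differences of -0.73 and -1.17. Cyp3a59 read 17.18 and 16.63 at 0 h against 16.37 and 15.42 at 24 h, and Cyp3a57 read 13.81 and 13.31 and then 12.88 and 12.29. In all 3 the YAP-KO 24 h array was the lowest and wildtype at 0 h the highest. The promoters of Cyp3a25 and Cyp3a59 were 94.8% identical and those of Cyp3a57 and Cyp3a59 90.1%. In the additive fit these genes had genotype coefficients of -0.68 (SE 0.21), -0.75 (SE 0.21) and -0.55 (SE 0.17) for Cyp3a25, Cyp3a59 and Cyp3a57. They were the 3 genes with an unadjusted p under 0.05 for genotype, and none passed after adjustment (adjusted p of 0.997). Whether the array separates these copies was not tested, so the 3 may not be separate observations.

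The female-biased Cyp3a genes followed the other order, with wildtype at 24 h lowest. Cyp3a16 read 10.29 and 10.14 at 0 h against 9.04 and 9.44 at 24 h. Cyp3a44 read 14.91 and 14.66 at 0 h against 12.94 and 13.71 at 24 h. The pair of probe sets shared by Cyp3a41a and Cyp3a41b had differences of -1.92 and -1.99 in wildtype and -0.87 and -0.88 in YAP-KO, beside -1.97 and -0.95 for Cyp3a44. Their promoters are nearly the same: that of Cyp3a41a was 99.6% identical to Cyp3a41b and 94.4% to Cyp3a44. Whether the array separates Cyp3a44 from that pair was not tested. The last 120 bases are shown for Cyp3a41a (chr5:145720137-145720256, minus strand) and Cyp3a44 (chr5:145805875-145805994, minus strand), to let the copies be compared. The HNF4 motif, in capitals, is in the first and not in the second. Of the 5 female-biased genes with a probe set of their own (Cyp2a4, Cyp2b9, Cyp2b13, Cyp3a16 and Cyp3a44), 4 were 2-fold lower in wildtype and 2 in YAP-KO. The shares over all genes were 5.89% and 2.22%.
Cyp3a41a: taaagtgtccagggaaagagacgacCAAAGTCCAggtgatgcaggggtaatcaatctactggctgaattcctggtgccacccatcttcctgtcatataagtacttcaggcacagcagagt
Cyp3a44: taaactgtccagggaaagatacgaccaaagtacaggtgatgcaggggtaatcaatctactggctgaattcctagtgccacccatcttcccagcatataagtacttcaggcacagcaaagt

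For the related gene lists that follow, the shares of all genes 2-fold lower at 24 h (5.89% in wildtype, 2.22% in YAP-KO) and 2-fold higher (12.7% and 4.72%) are the background of each count. Of 11 measured genes of xenobiotic receptors and their partners, 10 passed the filter. Of these 10, 5 were 2-fold lower in wildtype (median -1.01) and 2 in YAP-KO (median -0.40), and 0 were 2-fold higher in either. The CAR gene Nr1i3 read 11.84 and 11.53 at 0 h against 9.57 and 10.69 at 24 h, and the PXR gene Nr1i2 read 9.55 and 8.82 and then 8.12 and 8.65. The other 3 that were 2-fold lower in wildtype were the bile acid receptor gene Nr1h4 (-2.42), its target Nr0b2 (-2.10) and the fatty acid receptor gene Ppara (-1.86). Their differences in YAP-KO were -0.75, 0.29 and -0.33. The 2 that were 2-fold lower in YAP-KO were others, Ahr and the NRF2 gene Nfe2l2, both at -1.02 (-0.92 with array medians subtracted) beside -0.58 and -0.41 in wildtype. Among 8 liver-enriched transcription factor genes, 2 were 2-fold lower in each genotype. In wildtype these were Onecut1 (-2.98) and Cebpa (-2.43), and in YAP-KO Hnf4a (-1.45) and Cebpa (-1.28), while Foxa3 was 1.23 higher in YAP-KO at 0 h. Cebpb and Foxa3 were above 0 at 24 h in wildtype, at 0.35 and 0.38.

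The AHR gene Ahr read 0.95 higher in YAP-KO than in wildtype at 0 h, at 11.13 against 10.18, on the array where Cyp1a1 was high. On that array Tiparp, the AHR-induced repressor of AHR, read 8.21 against 7.01. At 24 h Tiparp read 10.97 and 7.19, when Cyp1a1 was low in both. The detoxification gene Nqo1, which AHR and NRF2 both induce, was 4.43 higher in wildtype and 1.09 higher in YAP-KO at 24 h. Ahrr and Aldh3a1 did not pass the filter. Of the 4 AHR target genes that passed (Nfe2l2 and Aldh1a7 are the others), Tiparp alone was 2-fold different between genotypes at 0 h. Of all genes 1.01% were 2-fold higher in YAP-KO at 0 h and 0.877% lower. In that comparison Nfe2l2 was at 0.35, Nqo1 at 0.29 and Aldh1a7 at -0.39, and the P450 gene Cyp1b1 at 0.15. Whether the Ahr and Tiparp readings are linked to that of Cyp1a1 was not tested.

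NADPH-cytochrome P450 reductase, the main electron donor (gene Por), was not analysed here. Of 5 other electron transfer genes (median -0.35 in each genotype), 1 was 2-fold lower in wildtype, the mitochondrial cytochrome b5 gene Cyb5b (11.92 to 9.99, and 11.92 to 11.46 in YAP-KO), and 0 in YAP-KO. The microsomal cytochrome b5 gene Cyb5a lay between 12.92 and 13.19 on all 4 arrays. Of 9 genes of haem synthesis and breakdown, 1 was 2-fold higher in each genotype and 1 was 2-fold lower in wildtype, shares near the background. The synthesis gene Cpox was lower in wildtype (-1.28) and higher in YAP-KO (0.66). Alas1, the first and rate-limiting step of liver haem synthesis, lay between 12.99 and 13.62. Hmox1, which breaks haem down, was 5.29 higher in wildtype and 1.56 higher in YAP-KO at 24 h.

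**Figure D5:**
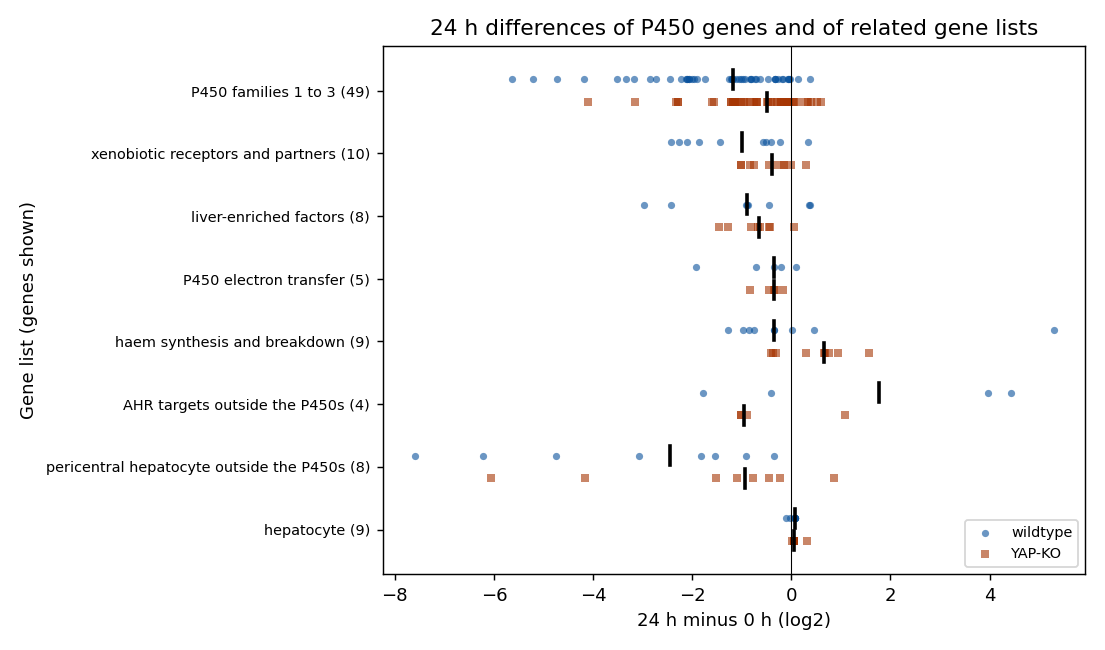
The x axis gives 24 h minus 0 h log2 differences in wildtype (circles) and YAP-KO (squares) for the 49 P450 genes and 7 related lists (y axis, number of genes in brackets); black bars are medians. The P450 medians are -1.17 and -0.50 and those of pericentral genes outside the P450s -2.46 and -0.93, while hepatocyte markers, 7 of 9 of them saturated, sit at 0.07 and 0.05.

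Of 8 pericentral genes outside the P450s, 6 were 2-fold lower at 24 h in wildtype and 4 in YAP-KO, and their median level was 11.4 and 11.2 at 0 h against 7.95 and 8.84 at 24 h. At 24 h all 8 were higher in YAP-KO, by 0.37 to 3.65, with Rgn (3.65) and Gulo (2.73) highest, while 51.9% of all genes were below 0. The glutamate transporter gene Slc1a2 (-7.60 and -6.06) and the ornithine aminotransferase gene Oat (-6.23 and -4.16) had the lowest 24 h differences, and Lect2 went against the others in YAP-KO (-0.35 and 0.87). Of 6 periportal genes 2 were 2-fold lower and 1 higher in wildtype, and 1 lower in YAP-KO, with Hal (-4.16 and -1.43) lowest and Cdh1 (3.74 and 0.99) highest. The probe set of Glul, shared with a microRNA gene, went the other way at 24 h, at 10.24 in wildtype and 8.59 in YAP-KO. Of 7 neutrophil markers 4 were 2-fold higher in wildtype and 3 in YAP-KO, and of 8 monocyte and macrophage markers 5 in each. S100a8 (4.65 and 1.59) and Cd14 (4.66 and 0.71) were highest in wildtype and Cd68 was at 4.33 and 4.34, while the neutrophil markers Ly6g (-0.63 and 0.09) and Camp (-0.65 and -0.15) were below 0 in wildtype. The erythroid gene Alas2 was at -2.24 and -1.86, while the haemoglobin probe sets, each shared by several genes, went the other way. Those of Hba-a1 and Hba-a2 were at 3.56 and 0.66 and at 3.61 and 0.76. Those of the Hbb genes were at 2.47 and 0.40 and at 2.17 and 0.57. The median level of the 8 macrophage markers was 6.71 and 6.44 at 0 h against 8.75 and 7.83 at 24 h, and that of the 8 neutrophil markers 5.39 and 5.55 and then 6.85 and 6.05. Saturated hepatocyte markers cannot show a change in the share of hepatocytes, and the part of cell composition in the P450 differences was not tested.

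Other P450 families were looked up too: Cyp4, Cyp7, Cyp8, Cyp17, Cyp20, Cyp21, Cyp26, Cyp27, Cyp39, Cyp46 and Cyp51. Their genes lay on both sides of 0. Of 30 that passed the filter, 9 were 2-fold lower and 5 higher in wildtype, and 7 lower and 4 higher in YAP-KO, with medians of -0.14 and -0.13. The lowest in wildtype were the bile acid synthesis genes Cyp7a1 (-5.46), Cyp7b1 (-4.56) and Cyp8b1 (-4.18). The fatty acid hydroxylase gene Cyp4a14, a PPARA target, was the highest, at 4.08 in wildtype and 3.92 in YAP-KO. The others 2-fold higher in wildtype were Cyp4a31 (2.02), Cyp20a1 (1.57), Cyp17a1 (1.52) and Cyp4a32 (1.46). In YAP-KO minus wildtype Cyp4a14 was at -2.82 at 0 h and -2.98 at 24 h. At 0 h 1 of the 30 was 2-fold higher in YAP-KO and 4 lower, beside 1.01% and 0.877% of all genes. At 24 h 7 were higher and 4 lower, beside 3.24% and 5.73%.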

How the data were processed

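Per the labels, biotin-labelled total RNA from Trizol extracts was made with the GeneChip WT Plus kit. The deposited log2 values are the authors' processed values per probe set. Their log base is inferred from their range, and the summarisation and normalization are not given in the sources used here; array medians were 4.32 to 4.47. The number of arrays limits the precision, and pooling 3 mice removes their individual spread. GEO's platform annotation named the probe sets: 31221 carried 1 gene (several names of 1 Entrez gene counted as 1), 1529 several and 33206 none. Symbols were updated to RefSeq GRCm38.p6 by Entrez ID. The brightest probe set was taken for the 364 genes with several; no P450 gene had more than 1. Differences were counted at 2-fold. The additive fit used limma 3.58.1 in R 4.3.3 and was tested on simulated data. Promoters were aligned with Biopython 1.88 (global alignment). Every P450 gene could be named, and those 2-fold different in any contrast had all 4 values given; for other lists, up to 4 largest members and those at least 1.5-fold against the list median could be named, and a few more were chosen after their values were seen. Alternatives were another scaling, filter, baseline array, fold threshold and probe set rule. Members and lists were chosen with earlier results of these data known.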

Additional observations from a re-analysis of the deposited data

Results flagged for a closer look

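In 3 P450 genes the 24 h difference had opposite signs in the genotypes and the responses differed 2-fold or more (YAP-KO minus wildtype). The difference of responses was 3.26 for Cyp2c70 (-2.86 in wildtype, 0.40 in YAP-KO), 1.35 for Cyp2d40 (-1.19 and 0.16) and 1.33 for Cyp2r1 (-1.01 and 0.32). With 1 array per group the difference was not tested in any of them. The YAP-KO values above 0 are all under 1.5-fold.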

How the results depend on the processing

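No paired analysis was possible because each genotype and time had 1 array. The count of P450 genes 2-fold different between genotypes at 0 h, 2 as reported, was 1 after quantile normalization (Cyp2d13 fell short), 1 with the 60th percentile filter (Cyp1a1 did not pass) and 6 at 1.5-fold. At 1.5-fold, 26 differed between genotypes at 24 h in place of 12, and 32 in the difference of responses in place of 20. An unadjusted p under 0.05 gave 23 genes for time and 3 for genotype in place of 0. With array medians subtracted Cyp2d9, Cyp2f2 and Cyp2r1 in wildtype and Cyp2j6 and Cyp3a57 in YAP-KO were no longer 2-fold lower. All other counts over the P450 genes stayed within 1.5 times, including 24 lower in wildtype against the YAP-KO 0 h array and 23 lower in YAP-KO against the wildtype 0 h array. Of 245 single differences, 244 moved by under 1.5-fold with quantile normalization and 245 with array medians subtracted. The median wildtype difference of AHR targets outside the P450s was 1.78, and -0.13 with no filter on dim genes, which adds 2 genes. Dim genes have no known detection level here, and Cyp2e1 is limited by saturation.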
